A study of Mus musculus with 12 samples.

Results

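The comparison described here is between wild-type mouse conjunctival fornix at post-natal day 20 (PN20) and the same tissue at post-natal day 14 (PN14), with 3 samples of each age, 6 of the 12 samples in the series. Every sample was RNA of the epithelial layer of the fornix, cut out by laser capture, from mice whose strain is labelled as a mixed background. The samples were taken by genotype and age labels alone, so no measured value chose them. The other samples were 3 wild-type fornices at day 9 (PN9), which serve below to set the late interval against the earlier one, and 3 Klf4 conditional null fornices at PN14 (Klf4CN), which entered the fit to estimate the spread and are not compared. Samples are called independent in the series' design, but no label ties a sample to an animal, so p-values measure the spread between these samples. Between 20 and 120 ng of RNA was amplified in 2 cycles before hybridisation to Affymetrix arrays of 45101 probe sets.

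The conjunctival fornix is the recess where the conjunctiva of the lid folds back onto that of the eyeball. Its stratified mucosal epithelium holds goblet cells, which secrete gel-forming mucin into the tear film, among keratinocyte-like cells that carry membrane mucins, and it rests on a loose stroma with fibroblasts, vessels and leukocytes. Mouse eyelids open towards the end of the second postnatal week, so the interval from PN14 to PN20 follows the first exposure of this surface to air and microbes.

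From PN14 to PN20, 94 genes passed as higher and 95 as lower in the fit over all groups. These counts do not measure how many genes changed, because they moved in both directions with the arrays fitted. The PN14 and PN20 arrays alone gave 595 higher and 521 lower, and the fit without the second PN20 array 2 and 1. In simulation the fit over all groups recovered 48 of 100 changes of 1 in log2. Of the lists described below, 4 of 24 goblet cell genes and 6 of 83 cell cycle and replication genes passed as higher, and 11 of 53 stromal matrix genes and 5 of 18 pericyte and smooth muscle genes passed as lower. The single genes that rose include Gsr, Gcnt3, Foxa3 and Epcam, and those that fell include Myl9, Ccn2 and Igf2. Of 14147 genes tested, 189 passed limma's moderated test at a Benjamini-Hochberg adjusted p under 0.05, a share of 1.34%: 94 were higher at PN20 (0.664%) and 95 lower (0.672%). These shares over all genes are the background for the list counts here and below. The changes that passed ranged from 0.73 to 2.53 in size on the scale of log2(signal + 16), with a median of 1.13 for the higher genes and -1.21 for the lower ones, while the median over all genes tested was 0.01. Folds below are on this scale, which understates changes of dim genes, and signals are given after each array was scaled to a common median. A signal compares samples within a gene, not genes with each other, and ± is the standard error of a log2 change from the fit, n = 3 per age. The arrays of the 2 ages did not overlap for 4294 genes (30.4%), of which 16.2% of all genes tested were higher at PN20 and 14.2% lower. When arrays were scaled to the median over every probe set in place of the kept ones, the split changed from 94 higher and 95 lower to 28 higher and 71 lower.

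The counts rested on all 6 arrays. Without the first, the second or the third PN14 array, 9, 33 or 31 genes were higher and 8, 31 or 52 lower. Without the first, the second or the third PN20 array, 10, 2 or 14 were higher and 19, 1 or 14 lower. Arrays that enter only the estimate of the spread moved the counts too: 49 higher and 58 lower without the first PN9 array, 136 and 133 without the second, 133 and 146 without the third, 52 and 56 without the first Klf4CN array, and 143 and 121 or 399 and 320 without the second or the third. Of the 88 genes named below as passing, 3 to 49 kept their call when 1 PN14 or PN20 array was left out, none changed direction, and Gsr, Ccn2 and Frg1 kept their call in every fit that left out an array. Frg1, a nuclear RNA-binding protein, read 83.0, 76.1 and 88.0 at PN14 and 286, 301 and 309 at PN20, 3.20-fold higher (adjusted p = 0.00457).

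**Figure D1:**
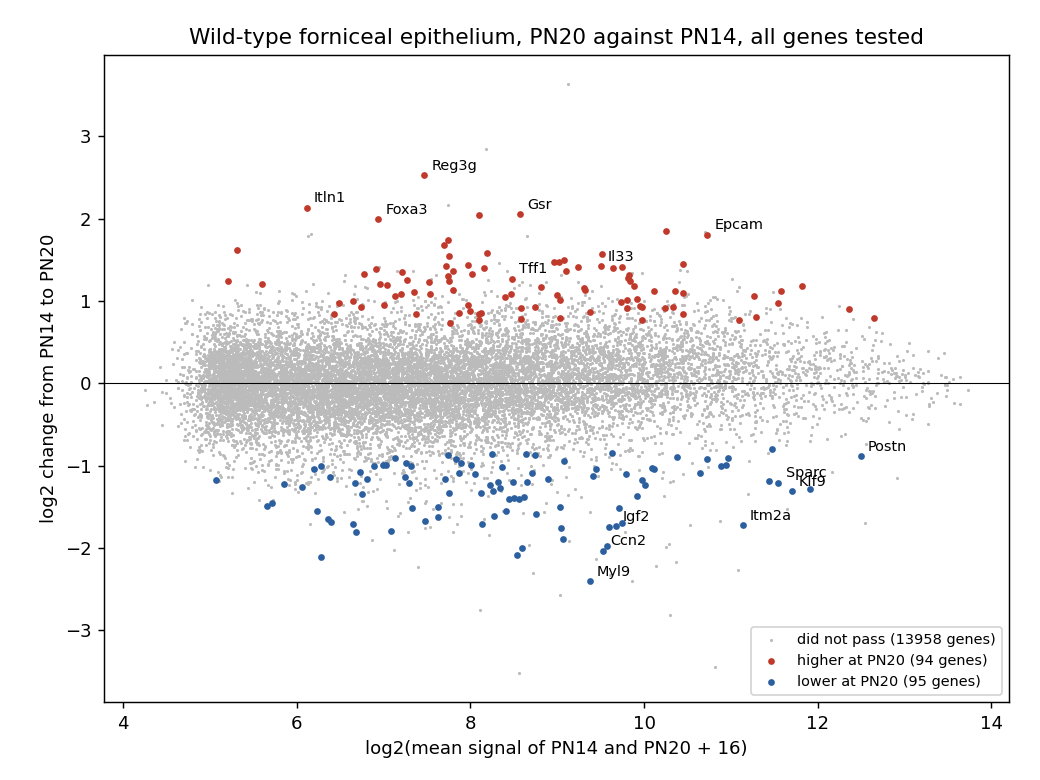
Each point is a gene; the horizontal axis is its mean level over the PN14 and PN20 arrays as log2(signal + 16) and the vertical axis its log2 change from PN14 to PN20. Red marks the 94 genes that passed as higher, blue the 95 that passed as lower and grey the rest; the genes that passed lie at sizes of 0.73 or more over the whole range of levels, and several larger changes in grey did not pass.

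The label was checked against 17 markers of conjunctival epithelium and goblet cells, and 16 of them were called Present, the scanner software's mark for a signal above its mismatch probes, on all 3 arrays at both ages. The mucosal keratin gene Krt4 gave 5632, 9069 and 7261 at PN14 and 8936, 10135 and 9195 at PN20. Krt12, the keratin of corneal epithelium, chosen here after its values were seen, also gave strong signal, 6490, 11141 and 12063 at PN14 and 6752, 1360 and 8592 at PN20, and did not pass (adjusted p = 0.37). The second PN20 array was thus low in Krt12. Klf4, an epithelial Krüppel-like factor that the series was built around, gave 4396, 6839 and 5297 at PN14 and 7108, 7159 and 7176 at PN20, and its log2 change of 0.40 ± 0.19 (SE) did not pass (adjusted p = 0.32), while the other of its 2 probe sets had a change of -1.02.

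Markers of tissues under the epithelium were present on these arrays and were lower at PN20. The 53 measured genes of fibroblasts and stromal matrix summed to signals of 123121, 142530 and 126631 at PN14 and 88477, 91408 and 85593 at PN20. The 44 skeletal muscle genes summed to 44768, 45660 and 28245 at PN14 and 25715, 7522 and 5748 at PN20, without overlap. The 18 pericyte and smooth muscle genes summed to 30210, 22931 and 22932 and then to 16321, 14121 and 11639. The skeletal muscle sums also differed widely within PN9, at 1385, 4668 and 23122. In RNA of a captured layer, fewer cells of a type, less RNA per cell and less underlying tissue cut out with the epithelium cannot be told apart. The part of these tissues in the changes of other genes was not tested. Xist was high on 2 PN14 arrays and 1 PN20 array. The actin 3′ to 5′ signal ratio, a measure of RNA quality and amplification, was 11.1, 24.9 and 21.1 at PN14 and 9.76, 16.5 and 11.9 at PN20.

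Of 24 measured genes of goblet cells and secreted mucins 23 had a positive change, with a median of 0.66 against 0.01 over all genes. Foxa3, Sytl4, Tff1 and Spdef passed as higher, 4 of 24 (16.7%, beside 0.664% of all genes), and none passed as lower. The ages did not overlap for 16 of the 24, 15 of them higher, beside 30.4% of all genes. Of the 24, 2 were not called Present on any array of either age.

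Foxa3 encodes a forkhead transcription factor of goblet cells. Its signal was 33.4, 21.2 and 46.9 at PN14 and 173, 210 and 155 at PN20. All 3 later arrays lay above all 3 earlier ones, a 3.99-fold rise (log2 2.0 ± 0.25, adjusted p = 0.00457).

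Spdef, an ETS-family factor required for goblet cell maturation, had signals of 92.0, 107 and 65.9 at PN14 against 202, 238 and 179 at PN20, 2.15-fold higher (adjusted p = 0.0325). Tff1, a trefoil peptide that travels with mucus, went from 225, 172 and 182 to 512, 466 and 482, a 2.41-fold rise (adjusted p = 0.0106). Sytl4, a Rab effector on secretory granules, went from 101, 112 and 105 to 249, 362 and 258, 2.47-fold higher (adjusted p = 0.0212). These 3 genes were each higher on every PN20 array than on any PN14 array.

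The gel-forming mucin gene Muc5ac read 1066, 885 and 516 at PN14 and 2772, 3907 and 2506 at PN20. The ages did not overlap, and the fold of 3.76 carried a log2 standard error of 0.50 and missed the threshold (adjusted p = 0.073). At PN9 the same probe set read 209, 105 and 16.5.

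Gcnt3 builds the branched cores of mucin O-glycans, and it was the gene of largest change among 31 measured for mucin O-glycosylation. It read 125, 81.6 and 68.3 at PN14 and 498, 472 and 309 at PN20, 4.12-fold higher (log2 2.04 ± 0.28, adjusted p = 0.0071). No other member passed, while 25 of the 31 changes were positive with a median of 0.30. Slc35a2, the Golgi carrier of UDP-galactose, read 388, 688 and 537 and then 1373, 1358 and 1064, 2.36-fold higher (adjusted p = 0.0145), although 3 of its 6 kept probe sets changed the other way. None of 15 membrane mucin and glycocalyx genes passed, with a median of 0.10. Among them Muc1, the best known membrane mucin, read 967, 1499 and 1127 and then 2086, 2589 and 2623, without overlap (adjusted p = 0.066).

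Of 63 genes of the secretory endoplasmic reticulum and the unfolded protein response 2 passed as higher (3.17%, beside 0.664% of all genes). As lower 1 passed (1.59%, beside 0.672%), and 41 of the 63 changes were positive with a median of 0.18. Hyou1, a chaperone of the endoplasmic reticulum, read 507, 330 and 534 and then 1425, 1134 and 1128, 2.67-fold higher (adjusted p = 0.0165). Lman1, a lectin that ferries glycoproteins to the Golgi, was 1.79-fold higher on the probe set used (adjusted p = 0.0454). Its other kept probe sets did not share this rise, with log2 changes of 0.21, 0.00, 0.17 and -1.16. Kdelr3, a receptor that returns escaped resident proteins, fell 2.36-fold, from 438, 424 and 347 to 151, 178 and 154 (adjusted p = 0.0145). Outside the list, the secretory-pathway calcium pump gene Atp2c2 rose 2.5-fold, from 50.3, 57.6 and 33.1 to 168, 132 and 122 (adjusted p = 0.0134). The members that passed thus went in both directions.

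**Figure D2:**
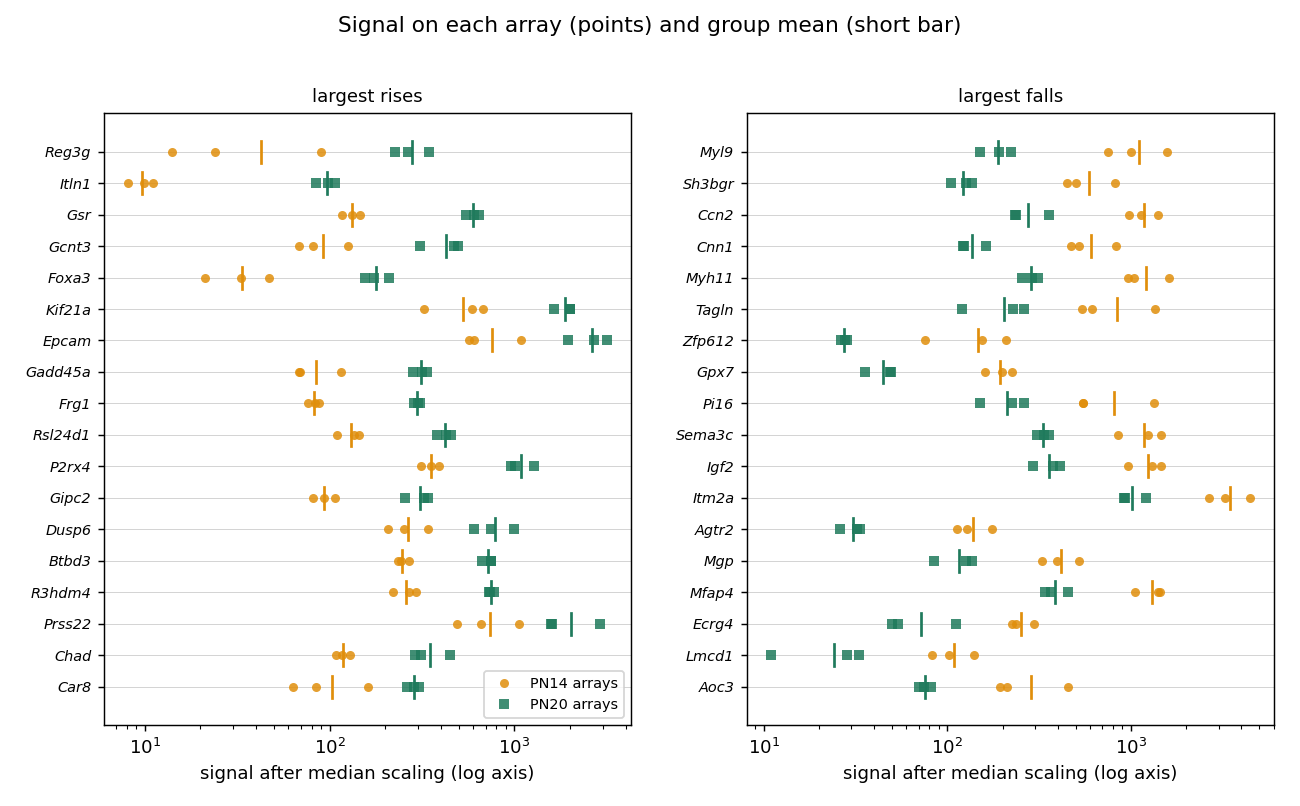
Scaled signal (log axis) of 18 genes with the largest rises and 18 with the largest falls, among genes that passed with Present calls on all 3 arrays of the brighter age; points are the 3 PN14 arrays (circles) and the 3 PN20 arrays (squares), and short bars are group means. The 2 ages lie apart in every row, and the PN14 points of Reg3g and Myl9 spread more widely than their PN20 points.

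Of 32 innate defence genes 2 passed, both higher (6.25%, beside 0.664% of all genes), and 19 changes were positive with a median of 0.22. Reg3g, a lectin that kills Gram-positive bacteria at the gut surface, was not called Present at PN14, where it read 89.8, 14.0 and 24.1, and was called on all 3 PN20 arrays at 225, 344 and 267. It was 5.77-fold higher (log2 2.53 ± 0.56, adjusted p = 0.0447), the largest rise among the genes that passed. With 1 PN14 or PN20 array left out its log2 change ran from 2.16 to 3.07. At PN9 it read 2.84, 1.54 and 1.32. Itln1, an intelectin that binds microbial sugars and that intestinal goblet cells secrete, read 11.1, 9.87 and 8.12 and then 108, 98.7 and 84.8, 4.39-fold higher (adjusted p = 0.0106). Itln1 was called Present on 1 PN14 array and, like Reg3g, on all 3 PN20 arrays.

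Il33, an alarmin cytokine stored in epithelial nuclei, read 420, 364 and 351 and then 1096, 1135 and 891, 2.67-fold higher (log2 1.42 ± 0.24, adjusted p = 0.0134). It was the member that passed of 36 cytokine, chemokine and regulator genes, whose median was 0.10. None of 46 interferon response genes passed (median 0.02). Of 18 antigen presentation genes 1 passed, H2-DMb2, which had no Present call at either age and is given no fold. Prss22, a serine protease of airway epithelium, rose from 660, 1063 and 492 to 1587, 1599 and 2889 (2.73-fold, adjusted p = 0.0442), and P2rx4, an ATP-gated ion channel, from 392, 312 and 355 to 1014, 1279 and 956 (2.97-fold, adjusted p = 0.0049).

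Of 38 junction genes 2 passed, both higher (5.26%, beside 0.664% of all genes), and 32 of the 38 changes were positive with a median of 0.29. Epcam, an adhesion molecule of simple and mucosal epithelia, read 606, 569 and 1088 and then 3173, 1957 and 2713. The ages lay apart and the fold was 3.50 (log2 1.81 ± 0.40, adjusted p = 0.0447). Ctnnd1, which encodes the p120 catenin that holds cadherins at the membrane, read 794, 1066 and 791 and then 1838, 1763 and 2059, 2.13-fold higher (adjusted p = 0.0335), with 2 of its 3 probe sets higher. Of cytoskeletal genes, Kif21a, a kinesin, rose 3.62-fold, from 590, 675 and 325 to 2008, 1645 and 1995 (adjusted p = 0.0407), and Wdr1, which helps cofilin take actin filaments apart, rose 2.65-fold, from 336, 294 and 315 to 867, 910 and 807 (adjusted p = 0.0179).

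None of 10 simple and mucosal keratins, 18 basal epithelial genes, 28 cornified envelope genes or 11 corneal epithelial genes passed, with medians of 0.28, 0.08, 0.25 and -0.19. In the wound and hyperproliferation list of 11 genes S100a8, a calprotectin subunit that neutrophils also carry in quantity, passed as lower, from 167, 144 and 103 to 42.8, 41.4 and 76.0 (2.24-fold, adjusted p = 0.0322). Among 62 epithelial transcription factors 1 rose and 1 fell, with a median of 0.02. Cebpb, a factor of inflammation and differentiation, read 163, 161 and 308 and then 484, 381 and 438, 2.06-fold higher (adjusted p = 0.0489). Klf9, a Krüppel-like factor that responds to glucocorticoid and thyroid hormone, read 3399, 5211 and 5647 and then 2072, 1963 and 1580, 2.48-fold lower (adjusted p = 0.0371), and none of its 6 probe sets had a positive change.

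Glutathione reductase, Gsr, which regenerates reduced glutathione with NADPH, showed the smallest p of any gene. Its signal was 117, 147 and 133 at PN14 and 646, 605 and 546 at PN20, a tight 4.15-fold rise on all 3 arrays (log2 2.05 ± 0.22, adjusted p = 0.0024), with both probe sets higher. Of the 43 glutathione and redox genes, 3 passed as higher (6.98%, beside 0.664% of all genes) and 1 as lower (2.33%, beside 0.672%). Prdx3, the mitochondrial peroxiredoxin, went from 476, 291 and 379 to 928, 818 and 829 (2.23-fold, adjusted p = 0.0447), and Nqo1, a quinone reductase, from 100, 118 and 88.4 to 227, 170 and 191 (1.79-fold, adjusted p = 0.0489). Gpx7, a peroxidase of the endoplasmic reticulum, fell 3.47-fold, from 199, 224 and 161 to 49.5, 48.8 and 35.6 (adjusted p = 0.0134). The list median was 0.02, with 22 positive changes of 43.

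Of 83 cell cycle and replication genes 6 passed as higher (7.23%, beside 0.664% of all genes) and none as lower, and 61 changes were positive with a median of 0.29. The array means of the list met between the ages, at 7.73, 8.04 and 7.72 at PN14 and 8.16, 8.04 and 8.14 at PN20 in log2(signal + 16), the second PN14 array being as high as the second PN20 array to 2 decimals. At PN9 the array means were 8.11, 8.13 and 7.90, and the median change of the list from PN9 to PN14 was -0.26.

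Cdk2, the kinase that drives entry into S phase, read 142, 126 and 152 at PN14 and 396, 372 and 422 at PN20. All PN20 arrays were above all PN14 arrays, a 2.65-fold rise (log2 1.41 ± 0.29, adjusted p = 0.0329). Mcm5, a subunit of the replicative helicase, read 517, 746 and 552 and then 1233, 1113 and 1089, 1.89-fold higher (adjusted p = 0.0477), with both probe sets higher.

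Ung, which removes uracil from DNA, rose 2.58-fold, from 232, 339 and 306 to 761, 824 and 729 (adjusted p = 0.0106). Mcm10, which helps the helicase start, and Rrm2, the regulated subunit of ribonucleotide reductase, were 1.94-fold and 1.92-fold higher (adjusted p = 0.0466 and 0.0477). Hmgb2, a chromatin protein of dividing cells, was 2.27-fold higher on its brightest probe set (adjusted p = 0.0382), but the other 2 of its 3 probe sets changed the other way. Outside the list, Ppat, which catalyses the committed step of purine synthesis, rose 2.34-fold, from 120, 80.3 and 81.6 to 282, 209 and 230 (adjusted p = 0.0228), and Fignl1, a recombination factor, rose 2.57-fold (adjusted p = 0.0106).

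Promoter windows, taken from RefSeq on build GRCm38.p6 from 250 bases before to 50 after the gene start, were searched on both strands for E2F sites, spelled TTTCCCGC or TTTGGCGC, for the forkhead core TGTTTAC and for the CArG box bound by serum response factor. A window was held for 11348 of the tested genes, and an E2F match was found in 3.14% of these, in 11 of 70 windows of the cell cycle and replication list (15.7%) and in 4 of 73 windows of the genes that passed as higher (5.48%). Of the 6 replication genes that passed, Cdk2 and Mcm5 held 1. The forkhead core was found in 3.14% of tested genes' windows, in 3 of the 73 (4.11%) and in none of 3 windows of the goblet genes that passed. The CArG box was found in 1.57% of tested genes' windows, in 3 of 60 windows of genes that passed as lower (5%: Myl9, Igf2 and Lmcd1) and in none of 15 windows of the smooth muscle list. A match describes these letters only. The windows of the 2 replication genes and of Myl9, the gene of largest fall among those that passed, are printed 5′ to 3′ on the gene's strand with the match in capitals. They lie at chr8:75109259-75109558 (Mcm5, plus strand), chr10:128705002-128705301 (Cdk2, minus strand) and chr2:156775214-156775513 (Myl9, plus strand). The matches start at -149, -140 and -161 from the gene start.
Mcm5: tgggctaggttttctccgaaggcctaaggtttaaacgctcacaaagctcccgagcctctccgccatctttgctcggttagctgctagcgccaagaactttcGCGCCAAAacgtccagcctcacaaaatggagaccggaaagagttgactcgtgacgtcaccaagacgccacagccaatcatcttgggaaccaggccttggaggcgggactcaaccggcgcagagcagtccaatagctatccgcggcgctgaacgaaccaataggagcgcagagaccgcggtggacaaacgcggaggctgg
Cdk2: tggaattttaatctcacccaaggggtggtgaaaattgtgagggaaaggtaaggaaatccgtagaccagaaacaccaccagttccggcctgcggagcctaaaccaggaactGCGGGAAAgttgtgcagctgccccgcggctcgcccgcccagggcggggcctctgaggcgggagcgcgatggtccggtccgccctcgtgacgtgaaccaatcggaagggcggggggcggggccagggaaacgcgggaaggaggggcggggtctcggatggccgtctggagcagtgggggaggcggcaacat
Myl9: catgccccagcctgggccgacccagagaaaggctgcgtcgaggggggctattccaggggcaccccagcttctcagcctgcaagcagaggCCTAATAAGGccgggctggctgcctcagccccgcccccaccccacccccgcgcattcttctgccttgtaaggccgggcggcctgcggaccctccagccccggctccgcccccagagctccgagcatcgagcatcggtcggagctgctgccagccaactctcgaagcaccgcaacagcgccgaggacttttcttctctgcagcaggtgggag

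Of 36 immediate early and heat shock genes 2 passed, both higher, with a median of 0.12: Gadd45a, a stress-induced inhibitor of growth, went from 68.4, 116 and 68.9 to 316, 283 and 336 (3.33-fold, adjusted p = 0.0251), and Dusp6, the phosphatase that restrains ERK, from 340, 252 and 207 to 744, 607 and 1001 (2.83-fold, adjusted p = 0.0311). Pim1, a kinase induced by cytokines, rose from 454, 579 and 484 to 1372, 1112 and 1361 (2.49-fold, adjusted p = 0.0107). Of 18 circadian clock genes 15 changes were positive with a median of 0.37, and 1 passed. That gene, the period gene Per3, read 255, 362 and 231 and then 629, 487 and 514, 1.89-fold higher (adjusted p = 0.0489). The labels give no hour of collection.

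Metabolic lists mostly held no gene that passed. None of 40 cholesterol and fatty acid synthesis genes did (31 positive, median 0.28), although Sqle, the squalene epoxidase, read 904, 930 and 744 and then 1851, 1219 and 1979 (adjusted p = 0.075). None of 41 transport genes passed (median 0.31); the water channel gene Aqp3 read 1127, 1296 and 953 and then 2338, 2064 and 2098 (adjusted p = 0.083). None of 41 drug metabolism genes, 27 retinoid genes or 71 genes of Notch, Wnt, TGF-beta and EGF signalling passed, with medians of 0.03, -0.03 and 0.00. Of 70 respiratory chain genes 50 had a negative change, with a median of -0.23, and Uqcr10, a subunit of complex III, passed as lower, from 381, 421 and 450 to 138, 209 and 138 (2.48-fold, adjusted p = 0.0418). Of 44 cytosolic ribosomal protein genes 36 were negative with a median of -0.20, and none passed.

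**Figure D3:**
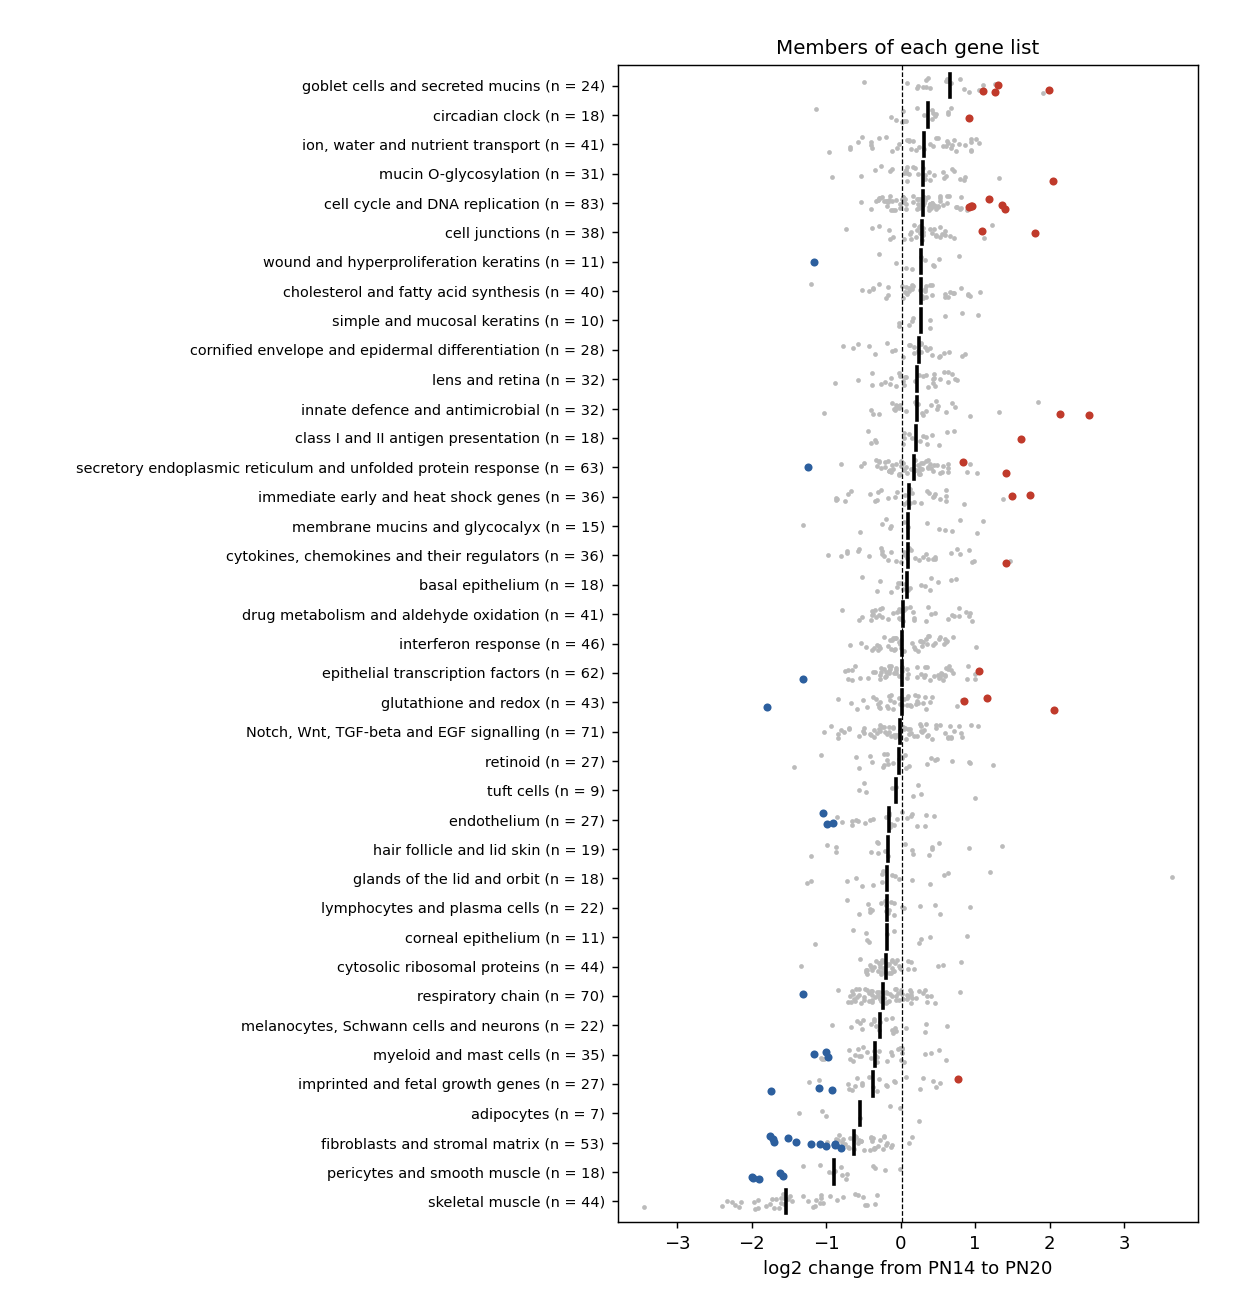
Log2 change from PN14 to PN20 of every measured member of each gene list other than the sex-linked genes, with the number measured; red points passed as higher, blue as lower and grey did not pass, thick bars are list medians and the dashed line is the median of all genes (0.01). Medians run from -1.54 for skeletal muscle to 0.66 for goblet cells; the blue points lie mostly in the stromal, smooth muscle, endothelial and myeloid lists.

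All 18 measured genes of pericytes and smooth muscle had a negative change, with a median of -0.90, and 5 passed as lower (27.8%, beside 0.672% of all genes) and none as higher. Outside the list, Myl9, the regulatory light chain of smooth muscle and non-muscle myosin, had the largest fall among the genes that passed. It read 1569, 997 and 752 at PN14 and 192, 222 and 151 at PN20. The lowest PN14 array was above the highest PN20 array, and the fold was 5.31 (log2 -2.41 ± 0.37, adjusted p = 0.0106).

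Myh11, the smooth muscle myosin heavy chain, fell 3.95-fold, from 1606, 1038 and 966 to 288, 313 and 256 (adjusted p = 0.0106). Cnn1, calponin, fell 3.99-fold, from 825, 471 and 521 to 124, 123 and 162 (adjusted p = 0.0106). Tagln, an actin-binding protein of smooth muscle, fell 3.73-fold, from 1352, 541 and 615 to 229, 262 and 120 (adjusted p = 0.0476). In each the first PN14 array was the highest.

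Of the other members that passed, Actg2, the enteric smooth muscle actin, read 1142, 404 and 413 and then 199, 181 and 166, 3.0-fold lower (adjusted p = 0.0422). Des, the intermediate filament protein of muscle, read 583, 366 and 406 and was not called Present at PN20, at 156, 154 and 98.3, 3.07-fold lower (adjusted p = 0.0134). Also outside the list, Mrvi1, a relaxation protein phosphorylated by cGMP kinase in smooth muscle, fell 2.61-fold (adjusted p = 0.0319), and the formin gene Fhod3 2.86-fold (adjusted p = 0.0394). Lmcd1, a LIM protein of muscle that had no Present call at PN20, fell 3.15-fold (adjusted p = 0.0255). The integrin gene Itga8 fell 2.58-fold, from 2213, 1082 and 905 to 627, 460 and 411 (adjusted p = 0.0394), and its matrix ligand Npnt fell 2.85-fold, from 1848, 977 and 903 to 485, 356 and 378 (adjusted p = 0.0177).

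Striated muscle genes were lower on average but none passed. All 44 had a negative change, with a median of -1.54. The ages did not overlap for 24 of the 44, all of them lower, beside 14.2% of all genes. Myh4, a fast myosin heavy chain, read 3526, 4348 and 1982 at PN14 and 460, 201 and 213 at PN20 (adjusted p = 0.076), after 13.0, 7.97 and 142 at PN9. The array means of the list were 8.68, 8.61 and 8.02 at PN14 and 7.88, 6.73 and 6.35 at PN20. The first PN20 array thus stood near the third PN14 array and far above the other PN20 arrays. Sh3bgr, a gene on no list, fell 4.26-fold, from 822, 499 and 451 to 136, 104 and 127 (adjusted p = 0.00737).

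Of 53 fibroblast and stromal matrix genes 51 had a negative change and the median was -0.63. As lower 11 passed (20.8%, beside 0.672% of all genes) and none passed as higher. Pi16, a marker of adventitial fibroblasts, read 551, 1339 and 548 and then 226, 262 and 150, 3.39-fold lower (adjusted p = 0.0311). Mgp, an inhibitor of calcification, read 523, 394 and 330 and then 136, 84.7 and 127, 3.27-fold lower (adjusted p = 0.0311). Mfap4, a microfibril-associated protein, read 1442, 1403 and 1054 and then 342, 366 and 456, 3.25-fold lower (adjusted p = 0.0134). In all 3 genes the lowest PN14 array was above the highest PN20 array.

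Of the abundant matrix genes, Postn, which encodes periostin, read 7060, 8434 and 6958 and then 3982, 4466 and 3660, 1.85-fold lower (adjusted p = 0.0405). Fn1, fibronectin, read 2261, 2378 and 1861 and then 1186, 818 and 1041, 2.13-fold lower (adjusted p = 0.0164). Sparc, a collagen-binding glycoprotein, read 3895, 4318 and 4242 and then 1426, 2079 and 1911, 2.31-fold lower (adjusted p = 0.0134), with 1 of its 3 probe sets changing the other way. The fibrillar collagen gene Col1a1, chosen after its values were seen, read 5524, 7987 and 7429 and then 6044, 4342 and 5211, which overlapped (adjusted p = 0.46). Its other kept probe set fell more, with a log2 change of -1.09 (limma over every kept probe set, adjusted p = 0.073).

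The small leucine-rich proteins Aspn and Ogn fell 2.85-fold and 2.01-fold (adjusted p = 0.0281 and 0.0311), and the elastic fibre genes Loxl1 and Fbln5 2.65-fold and 1.84-fold (adjusted p = 0.0289 and 0.0485). On no list, Ccn2, a matricellular growth factor induced by TGF-beta and by YAP, fell from 974, 1408 and 1140 to 357, 238 and 234, 4.10-fold (log2 -2.04 ± 0.23, adjusted p = 0.0024). Sema3c, a secreted guidance molecule, fell 3.34-fold, from 1453, 1243 and 846 to 336, 310 and 356 (adjusted p = 0.0106), and Itm2a, a membrane protein, 3.31-fold, from 4453, 3252 and 2669 to 1213, 921 and 926 (adjusted p = 0.0106). Agtr2, a receptor of angiotensin II that is abundant in fetal mesenchyme, fell 3.28-fold, from 174, 128 and 113 to 32.3, 26.1 and 33.4 (adjusted p = 0.0164). Zeb2, a repressor of epithelial cadherin, fell 2.64-fold, from 540, 409 and 653 to 181, 194 and 190 (adjusted p = 0.0251).

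Of 27 endothelial genes 3 passed as lower (11.1%, beside 0.672% of all genes) and the median was -0.15. Cd34, a sialomucin of vessels and some fibroblasts, fell 2.06-fold (adjusted p = 0.0335), and Eng, a TGF-beta co-receptor, 1.99-fold (adjusted p = 0.0386). Esam, an adhesion molecule, fell 1.88-fold, from 163, 168 and 173 to 79.3, 81.4 and 83.8 (adjusted p = 0.0165). Cd93, a lectin-like receptor of endothelium that was not on the list, fell 2.53-fold (adjusted p = 0.0173). Among the 35 genes listed for myeloid and mast cells 3 passed as lower (8.57%; median -0.35), among them S100a8; Tyrobp, a signalling adaptor of myeloid cells, read 182, 166 and 212 and then 82.4, 92.0 and 86.6 (1.96-fold, adjusted p = 0.0301), and Clec10a, a macrophage lectin, 100, 170 and 157 and then 84.7, 47.6 and 56.5 (2.0-fold, adjusted p = 0.0458). None of 22 lymphocyte and plasma cell genes passed (median -0.18). In all, 22 of the 95 lower genes and none of the 94 higher ones stood on a list of another cell type, lists that held 309 of the genes tested. None passed in the lists for melanocytes, Schwann cells and neurons (median -0.28), lens and retina (0.22), glands of the lid and orbit (-0.18), hair follicle and lid skin (-0.17), adipocytes (-0.54) or tuft cells (-0.06). None of 4 measured sex-linked genes passed, but Xist and Eif2s3y differed widely within each age. Eif2s3y, a gene of the Y chromosome, read 2.13, 3.95 and 746 at PN14 and 1.99, 817 and 740 at PN20, and Xist was high where it was low. The ages thus differed in the number of arrays with high Xist, and counts with the Xist level as a covariate are given below.

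**Figure D4:**
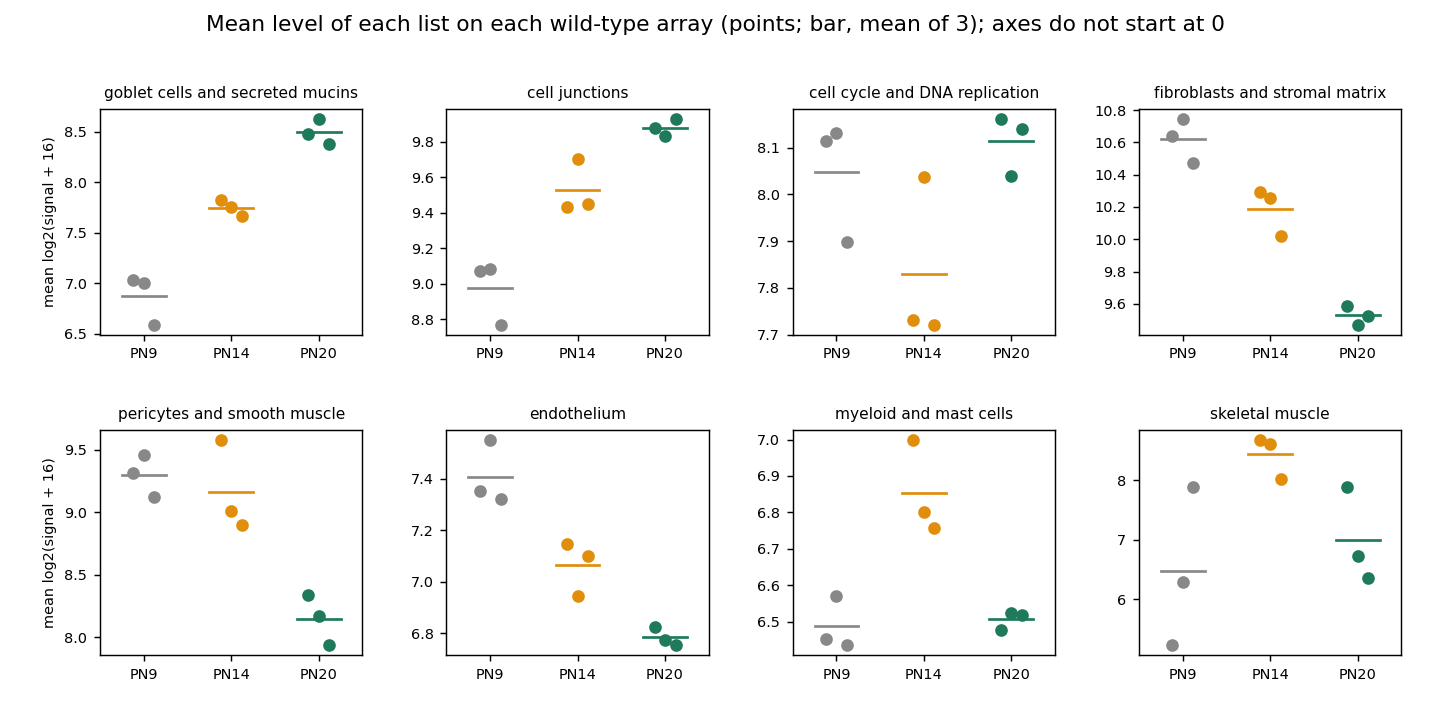
Mean of log2(signal + 16) over the members of 8 gene lists on each of the 9 wild-type arrays (points) and the mean of 3 arrays (bars) at PN9, PN14 and PN20; the vertical axes differ and do not start at 0. The PN20 points lie apart from the PN14 points in these panels except for the cell cycle list, where they meet at 8.04, and the skeletal muscle panel has the widest spread within an age.

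Some fetal growth genes fell. Of 27 imprinted and fetal growth genes 20 had a negative change, with a median of -0.38. As lower 3 passed (11.1%, beside 0.672% of all genes) and as higher 1 (3.70%, beside 0.664%). Igf2, the imprinted fetal growth factor, read 4269, 7829 and 3875 at PN9, 1303, 1464 and 965 at PN14 and 409, 379 and 292 at PN20, so the arrays of each age lay below all arrays of the age before. It fell 3.33-fold over the later interval (log2 -1.74 ± 0.27, adjusted p = 0.0106). Cdkn1c, an imprinted inhibitor of the cell cycle, read 1013, 1526 and 1058 and then 579, 530 and 514, 2.15-fold lower (adjusted p = 0.0301), and Peg3, an imprinted zinc finger gene, 2308, 2348 and 1948 and then 1382, 979 and 1125, 1.89-fold lower (adjusted p = 0.0336). Ptn, pleiotrophin, a heparin-binding growth factor, was the member that rose, from 820, 690 and 683 to 1386, 1201 and 1188 (1.71-fold, adjusted p = 0.0497), with 2 of its 3 probe sets higher.

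Whether a gene's late change differed from its change between PN9 and PN14 was tested as a contrast of the 2 differences, which share the PN14 arrays. It passed for 24 of the 14147 genes (0.17%), 11 with the late change the more positive and 13 with it the more negative, and 16 of these had also passed from PN14 to PN20. Without the first PN14 array 1 gene passed and without the third Klf4CN array 156. In 9 of the 16 the level was lower at PN14 than at both other ages, and in 7 it was higher. Because both differences use the PN14 arrays, a PN14 level off its true value moves them in opposite directions.

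Of the 9 genes with a low PN14 level, Mark2, a kinase of cell polarity, read 317, 362 and 341 at PN9, 99.6, 138 and 136 at PN14 and 302, 254 and 316 at PN20. The middle arrays stood below all others, and the late change exceeded the early one by 2.48 on the log2 scale (adjusted p = 0.014). Rsl24d1, an assembly factor of the large ribosomal subunit, read 262, 188 and 254, then 136, 110 and 144, then 428, 455 and 382 (difference 2.36, adjusted p = 0.0208). Ptn read 1684, 1699 and 1846 at PN9, above its PN20 values (difference 2.01, adjusted p = 0.0227). Gsr, Ung, Mccc2, Golt1b, Usp36 and Alyref had differences of 2.08 to 2.54 (adjusted p = 0.0284, and 0.0339 for Alyref); they encode proteins of uracil repair (Ung), leucine breakdown (Mccc2), Golgi transport (Golt1b), the nucleolus (Usp36) and mRNA export (Alyref). Gsr differed from the others in its early change, which was -0.16 and did not pass (adjusted p = 0.68).

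Of the 7 genes with a high PN14 level, Ccn2 read 365, 544 and 479 at PN9, so its PN14 arrays stood above all others, and its late change was lower than its early one by a log2 difference of -3.35 (adjusted p = 0.00884). Klf9 read 2184, 997 and 1723 at PN9 (difference -2.88, adjusted p = 0.0284) and S100a8 44.4, 65.5 and 47.2 (difference -2.32, adjusted p = 0.0369). Abca1, the cholesterol exporter, read 641, 584 and 664, then 1728, 1374 and 1246, then 708, 694 and 687, with 1 of its 2 probe sets changing the other way from PN14 to PN20 (difference -2.20, adjusted p = 0.0461). Pcdhb9, a clustered protocadherin, read 19.1, 13.0 and 19, then 80.4, 59.5 and 54.2, then 26.7, 19.9 and 10.2 (difference -2.50, adjusted p = 0.0284). Fitm1 and Angpt4 had no Present call at PN14 or PN20. None of the 4 goblet cell genes that passed from PN14 to PN20 was among the 24, and for Foxa3 the difference was 1.53 (adjusted p = 0.18). For Gcnt3 it was 0.14 (adjusted p = 0.94).

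**Figure D5:**
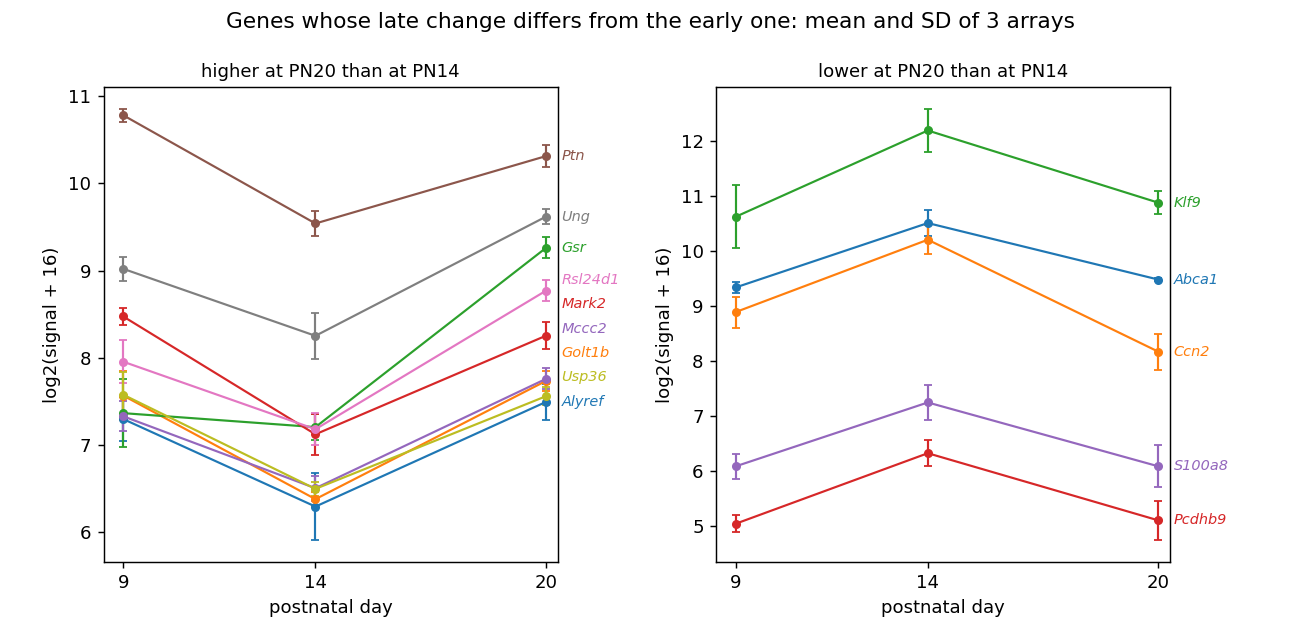
Mean log2(signal + 16) and SD of 3 wild-type arrays at post-natal days 9, 14 and 20 for the 14 genes that passed both the late test and the test of the difference between late and early change and were called Present at PN14 or PN20. The 9 genes at left have their lowest mean at day 14 and the 5 at right their highest.

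In the authors' deposited table, which scores each probe set by the sum of the software's increase (+1) and decrease (-1) calls over the 9 pairings of a PN14 with a PN20 array, 784 of 45101 probe sets passed its rule (1.74%), which asks for Present calls on all 3 arrays of the brighter age, ages that do not overlap, a ratio of means over 2 and a score beyond 5, 288 higher and 496 lower at PN20. In the authors' deposited table, of the genes tested here, 413 passed on the probe set used for them, and limma called 133 of these. They were 32.2% of the genes that passed the authors' rule and 70.4% of limma's calls. Of the 189 limma calls 173 had a score beyond 5 in the same direction in the authors' deposited table. Of the 189, 8 had no Present call at either age, 4 in each direction.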

How the data were processed

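RNA of laser-captured forniceal epithelium from 12 samples was hybridised to Affymetrix arrays of 45101 probe sets. The deposited values are linear intensities that the authors scaled in GCOS 1.4 to a 2% trimmed mean of 150 per array, per the readme deposited with them, which also describes the deposited Present counts per group and the deposited score, the sum of calls over 9 pairwise comparisons. The sources used here name no genome build. Background correction was the authors', and array number limits the precision.

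Probe sets above the 40th percentile of their own array on at least 3 arrays were kept (30600, without spike-in controls), each array was scaled to a common median of these, and log2(signal + 16) was taken. Of all probe sets, 34958 have 1 gene symbol in the platform annotation, updated through RefSeq, 932 have several and 9211 none; a gene was its brightest kept probe set, a choice that matters for the 6410 genes with several. limma 3.58.1 in R 4.3.3 fitted 1 mean per group over all 12 arrays (8 residual and 6.04 prior degrees of freedom), with trended eBayes, two-sided tests and Benjamini-Hochberg adjustment over 14147 genes. On simulated data of the PN14 to PN20 contrast over 14147 genes, the fit recovered 48 of 100 changes of 1 and 90 of 100 changes of 2 in log2. It made 10 false calls among the genes given no change.

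A fold is 2 to the power of the log2 change. Where the dimmer age had no Present call this is stated and the fold is the fitted value, not a bound. Where neither age had 1 no fold is given. Promoter windows were matched by gene symbol in RefSeq's table. Genes are named by a rule: the 40 largest non-overlapping changes that passed in each direction, up to 10 passing members of each of 40 lists or the 3 of smallest p, the 12 smallest p, and the largest of those that also passed the test against the early change. Not every gene the rule yields is printed. The members and lists were chosen with earlier results of these data known. Alternatives covered offset, scaling, filter, probe set choice, variance model, covariates, replicate block, samples fitted and threshold.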

Additional observations from a re-analysis of the deposited data

How the results depend on the processing

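Counts from limma at an adjusted p under 0.05 depended on the settings far more than directions did: none of the 88 named genes that passed changed direction under the alternatives of processing and samples, and the numbers that kept their call ran from 3 (without the second PN20 array) to 88. Beside 94 higher, 95 lower and 24 differing between intervals, the counts were 28 higher and 12 differing when arrays were scaled to the median of all probe sets, 158 lower and 51 differing for the values as deposited, 45 differing with quantile normalization, 54 and 57 with no filter, 52, 53 and 11 with the mean of a gene's probe sets, and 56 and 61 with no trend. Array weights gave 788, 696 and 402, a fit of the wild-type groups alone 364, 282 and 165, and a fit of PN14 and PN20 alone 595 and 521. The actin ratio as a covariate gave 46 and 61, and the Xist level 47, 56 and 5. A minimum fold of 1.5 left 0 higher and 0 lower genes and 1 differing gene at the adjusted threshold (265 genes at an unadjusted p under 0.05), and an adjusted p under 0.1 gave 330, 312 and 85. Leaving out 1 array gave 2 to 399 higher, 1 to 320 lower and 1 to 156 differing genes. With the replicate block the counts were 49, 52 and 12; same-numbered PN14 and PN20 arrays deviated from their group means with correlations of 0.157, -0.042 and -0.025, so the numbers were not taken to pair the samples. The mean of its 2 probe sets turned the change of Klf4 to -0.31 (adjusted p = 0.67). The cause of these differences was not tested, and in simulation the fit recovered 48 of 100 changes of 1 in log2.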
